A study of Oryza sativa with 15 samples.

Results

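CpG regions in introns are stretches of the rice genome in which the methylation of cytosines in the CpG context was called different from the wild type, and which the deposited annotation places in an intron of a gene. They were taken from the 3 deposited lists of differentially methylated regions (DMRs) as all rows of the class CpG with a gene ID and an intron as their genomic feature, whatever their level. There were 901 such regions of 11392 listed regions, with 428 of 5122 in the list of CK, 178 of 2731 in that of SDWT and 295 of 3539 in that of pOsNAR2.1-OsNAR2.1. They lay in introns of 741 genes. The files do not pair these gene IDs with names, and no gene name is given here.

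Methylation in the CpG context is copied to the new DNA strand after replication, in plants by the methyltransferase MET1, and can therefore be passed on through cell divisions and to progeny. In plant genes it is found along the transcribed body, and introns also hold transposable elements, which are usually methylated more densely than the coding sequence around them. In Arabidopsis, methylated repeats inside long introns are known to affect how the transcript is spliced and where it ends.

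Whole-genome bisulfite sequencing (WGBS), in which unmethylated cytosines are converted and methylated ones are kept, was done on DNA of 10-day-old seedlings. All 4 groups had the japonica cultivar Wuyujing7 (WYJ7) as their background, with 3 libraries each. WYJ7 was the untransformed wild type, and CK were T0 plants regenerated from callus without a transgene, with the replicates from independent calli. pOsNAR2.1-OsNAR2.1 were T4 plants that carry an added copy of OsNAR2.1, a partner protein of nitrate transporters, under the promoter of that gene, and that passed through callus, shoot regeneration and hygromycin selection. SDWT, named FP in the labels, were T4 plants without the transgene that segregated from the same transformed line. Both T4 groups thus descend from 1 transformed line, CK was taken in the generation of regeneration itself, and generation, selection and transgene cannot be told apart between CK and the T4 plants. According to the paper, WYJ7 and both T4 groups were surface-sterilized with hydrogen peroxide and grown in water. CK plants were instead moved to water from root medium, and all groups were collected at the same leaf stage. This difference in growth cannot be told apart from regeneration when CK is set beside WYJ7. Each list compares a line with the same 3 WYJ7 libraries.

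Each deposited level is the percentage of methylation of a region in 1 library. A region is called hyper here when the mean of the 3 line libraries was above the mean of the 3 WYJ7 libraries, and hypo when it was below. The lists hold only regions called different in these same libraries, so all differences from WYJ7 are descriptions and were not tested. Read depth per region is unknown, so no counting error is given. Some level was listed at 0 in 132 of the 428 CK regions, 68 of the 178 SDWT regions and 92 of the 295 pOsNAR2.1-OsNAR2.1 regions. For this last line, 3 regions were listed at 0 in all 6 libraries although they stand in a list of differences, so a listed 0 may not always be a measured absence of methylation. CK replicate 2 stood apart from the other 2 CK libraries, and the main CK results are also given from replicates 1 and 3 alone.

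In CK, most intron CpG regions had a lower level than in WYJ7. Hypo-DMRs numbered 312 and hyper-DMRs 116, which was 27.1% hyper against 28.6% in the whole CK list (71.2% hypo), so the intron regions lay near their background. WYJ7 had a mean level of 72.8% ± 1.27 over the 312 hypo-DMRs, and CK one of 42.3% ± 4.32 (SD over 3 libraries each). Over the 116 hyper-DMRs the mean was 26.5% ± 1.17 for WYJ7 and 53.5% ± 4.67 for CK (SD, n = 3 each). The hypo mean was 39.3% in CK replicate 1, 47.3% in replicate 2 and 40.3% in replicate 3, so replicate 2 lay closest to WYJ7. The same was true of the hyper-DMRs, at 56.5%, 48.1% and 56.0%. The mean difference from WYJ7 was -30.5 points in the hypo-DMRs and -33.0 points without replicate 2, and 27.0 and 29.7 points in the hyper-DMRs. The share of hyper-DMRs was 25.8% without replicate 2 among regions still 20 points apart, against 25.9% with all replicates under that limit. Over all regions it was 27.1% without replicate 2 as well.

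The commonest course in CK was from a high level in WYJ7 to an intermediate one. With low meaning below 20% and high above 80%, 157 of the 428 regions were high in WYJ7 and intermediate in CK, whereas 1 was high in WYJ7 and low in CK. Without CK replicate 2 these numbers were 151 and 2. A further 113 were intermediate in both, 61 went from intermediate to low, 45 from low to intermediate and 22 from intermediate to high. All 3 WYJ7 libraries were above 90% in 52 regions, and all 3 CK libraries in 6. Replicates 1 and 3 of CK were both above 90% in 14. WYJ7 was high in 38.3% and low in 15.9% of the intron regions, against 38.7% and 16.4% of the whole CK list. The courses between classes were not counted for the whole list.

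The region OS01G0255000 (chromosome 1, 8487696 to 8487726, 5 CpGs, IRGSP-1.0) lay furthest below WYJ7 in CK among regions of at least 5 CpGs whose groups did not overlap. It was at 83.2%, 75.4% and 82.2% in the WYJ7 libraries and at 35.7%, 31.7% and 18.3% in the CK libraries, a difference of -51.7 points. All 3 CK libraries were far below all 3 WYJ7 libraries, including replicate 2. The region of OS03G0374901 (chromosome 3, 14781065 to 14781124, 6 CpGs), inside an intron of 8171 bp, was at 91.5%, 89.9% and 88.1% in WYJ7 and at 20.4%, 61.9% and 47.7% in CK. Its CK libraries were all lower but lay far apart from each other. OS07G0255900 (chromosome 7, 8784864 to 8784917, 5 CpGs), in a short intron of 311 bp, was at 58.2%, 53.7% and 44.6% in WYJ7, and CK was listed at 0, 0 and 19.2%.

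Among the hyper-DMRs of CK, OS06G0183200 (chromosome 6, 4147079 to 4147112, 5 CpGs) was listed at 0 in all WYJ7 libraries and was at 73.7%, 25.1% and 55.0% in CK. The 3 CK libraries were all above WYJ7 but differed from each other by up to 48.6 points. The region of OS01G0500750 (chromosome 1, 17297286 to 17297345, 6 CpGs) was at 62.1%, 60.5% and 26.7% in WYJ7 and at 92.2%, 96.9% and 96.4% in CK. Here the spread was among the WYJ7 libraries, and the CK libraries were nearly fully methylated. OS02G0458900 (chromosome 2, 15318588 to 15318686, 6 CpGs), deep in an intron of 12342 bp, was at 44.0%, 54.4% and 46.6% in WYJ7 and at 91.1%, 67.7% and 92.4% in CK, where replicate 2 was again the closest to WYJ7.

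The most CpG-rich intron region of the CK list was OS12G0525300 (chromosome 12, 20653107 to 20653332), with 23 CpGs in 226 bp that end 16 bp from the end of the intron. It was at 24.2%, 35.8% and 40.0% in WYJ7 and at 5.86%, 12.9% and 0 in CK, so CK was lower in all 3 libraries. The hyper-DMRs richest in CpGs had 10 each. OS11G0582000 (chromosome 11, 21987996 to 21988059) was at 27.2%, 30.9% and 28.7% in WYJ7 and at 40.8%, 50.4% and 59.4% in CK. OS12G0528801 (chromosome 12, 20844625 to 20844718) was at 51.0%, 63.3% and 57.2% in WYJ7 and at 84.9%, 75.1% and 91.9% in CK. In both of these the groups did not overlap.

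The 3 CK libraries fell outside the range of the WYJ7 libraries in 273 regions, 63.8% against 61.4% of the whole list. In 141 regions each of the 3 was 20 points or more away from the mean of WYJ7, 32.9% against 31.1% of the whole list. A similar number of regions, 142, was that far from WYJ7 in replicates 1 and 3 but not in replicate 2. Only 28 had this pattern without replicate 1 and 28 without replicate 3. CK replicates 1 and 3 differed by a median of 7.14 points, replicates 1 and 2 by 21.7 points and replicates 2 and 3 by 21.6 points, whereas the WYJ7 pairs differed by 5.98 to 6.59 points in the same regions. The median SD between replicates was 14.9 points in CK and 5.75 points in WYJ7, and the CK SD was the larger in 73.1% of the regions. In the whole CK list these values were 14.7 points, 5.30 points and 72.3%, so the spread was not particular to introns. Each of replicates 1 and 3 was that far from WYJ7 in 283 regions (66.1%). Without CK replicate 2 the difference between the 2 medians went from 9.16 points to -0.70 points, and the share of regions whose groups did not overlap was 86.9%. Without replicate 1 instead these were 9.52 points and 66.8%, and without replicate 3 they were 9.58 points and 66.4%. An SD of 2 libraries is set beside one of 3 here. Non-overlap can only become more frequent when a library is left out, and no such shares were computed for the whole list. What set replicate 2 apart was not tested.

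Replicate 2 was not the CK library closest to WYJ7 in every region. In OS08G0299400, chosen after its values were seen, 2 regions lie within 1 intron of 1339 bp on chromosome 8 (12268036 to 12268042 with 4 CpGs, and 12268066 to 12268125 with 10 CpGs). The region with 10 CpGs was at 87.2%, 93.5% and 91.3% in WYJ7 and at 69.1%, 0 and 69.6% in CK. The other was at 73.1%, 78.7% and 86.6% in WYJ7 and at 51.7%, 0 and 48.5% in CK. Replicates 1 and 3 were within 3.26 points of each other in both regions, and replicate 2 was listed at 0 in both. As listed, replicate 2 was thus the furthest from WYJ7 here, in 1 intron picked on its values.

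**Figure D1:**
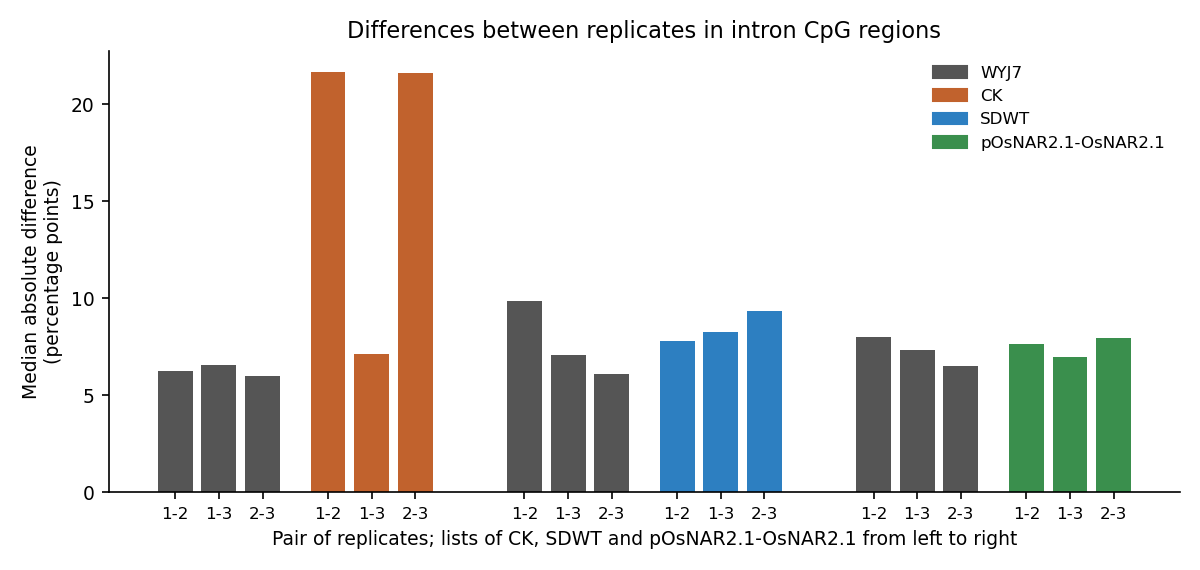
Median absolute difference (percentage points, y axis) between each pair of the 3 replicates of a group over the intron CpG regions of a list; the lists of CK (428 regions), SDWT (178) and pOsNAR2.1-OsNAR2.1 (295) stand from left to right, each with its WYJ7 pairs in grey. The CK pairs with replicate 2 reached 21.6 and 21.7 points, and all other pairs lay between 5.98 and 9.88 points.

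In SDWT the intron CpG regions were split almost evenly. There were 94 hyper-DMRs and 84 hypo-DMRs, 52.8% hyper against 51.6% in the whole SDWT list (48% hypo). The hyper-DMRs had a mean level of 31.5% ± 1.24 for WYJ7 and 59.1% ± 1.47 for SDWT (SD, n = 3 each). The hypo-DMRs had one of 59.5% ± 3.24 for WYJ7 and 31.9% ± 0.730 for SDWT (SD, n = 3 each). The SDWT libraries were close together, at 58.7%, 57.9% and 60.7% in the hyper-DMRs and at 32.0%, 32.5% and 31.1% in the hypo-DMRs. Their replicates differed by medians of 7.80 to 9.37 points and those of WYJ7 by 6.08 to 9.88 points. The groups did not overlap in 127 regions, 71.3% against 69.1% of the whole list, and each SDWT library was 20 points or more away from the mean of WYJ7 in 80 regions, 44.9% against 45.2%.

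The most frequent class of the SDWT regions was intermediate in both groups, with 50 of 178. Similar numbers went from intermediate to low (29), from intermediate to high (27), from high to intermediate (27) and from low to intermediate (24). A single region went from low to high, that is 1 of 178. All WYJ7 libraries were listed at 0 in 20 regions and all SDWT libraries in 21. WYJ7 was high in 16.3% and low in 24.2% of the intron regions, against 15.7% and 29.5% of the whole SDWT list, for which the courses were not counted.

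OS11G0274166 (chromosome 11, 9695795 to 9695837, 6 CpGs) lay furthest above WYJ7 in SDWT under the rule used for CK. It was at 8.57%, 45.5% and 18.9% in WYJ7 and at 90.5%, 91.3% and 92.4% in SDWT, a difference of 67.1 points. The SDWT libraries agreed within 1.88 points, and the spread was among the WYJ7 libraries. In OS11G0614500 (chromosome 11, 23857217 to 23857241, 7 CpGs) the levels were 21.1%, 26.0% and 16.7% in WYJ7 and 83.0%, 39.1% and 84.9% in SDWT. The region with the most CpGs of the SDWT hyper-DMRs, 11, was in OS12G0609500 (chromosome 12, 25740371 to 25740435), at 24.2%, 10.9% and 0 in WYJ7 and at 48.2%, 40.9% and 46.8% in SDWT. Both had all SDWT libraries above all WYJ7 libraries.

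On the hypo side of SDWT, OS04G0596500 (chromosome 4, 30090228 to 30090268, 6 CpGs) was at 86.9%, 98.5% and 87.5% in WYJ7 and at 44.4%, 28.4% and 55.2% in SDWT. OS01G0631400 (chromosome 1, 25260530 to 25260600, 10 CpGs) was at 89.3%, 94.98% and 85.3% in WYJ7 and at 60.1%, 60.0% and 56.8% in SDWT, with both groups tight. The region with the most CpGs, 16 in 76 bp, lay in OS11G0588100 (chromosome 11, 22303157 to 22303232), at 71.9%, 72.9% and 78.9% in WYJ7 and at 45.6%, 55.5% and 49.9% in SDWT. In these 3 regions, high in WYJ7 in the first 2 and intermediate in the last, all SDWT libraries were below all WYJ7 libraries, but none was near 0.

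A hypo-DMR and a hyper-DMR stood in the same intron of OS11G0543300, of 1920 bp on chromosome 11. The region from 19951002 to 19951047 (5 CpGs) was at 25.3%, 46.6% and 51.5% in WYJ7 and at 9.24%, 0 and 15.0% in SDWT. The region from 19952139 to 19952180 (5 CpGs) was at 15.7%, 27.6% and 38.2% in WYJ7 and at 73.2%, 89.3% and 73.8% in SDWT. In WYJ7 both regions were lowest in replicate 1 and the groups did not overlap in either, while in SDWT the level of the first was below and that of the second above WYJ7.

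In pOsNAR2.1-OsNAR2.1 most intron CpG regions had a higher level than in WYJ7. Hyper-DMRs numbered 239 and hypo-DMRs 53, with 3 regions listed at 0 throughout, which was 81.0% hyper against 76.9% in the whole list of this line (22.3% hypo). Over the hyper-DMRs WYJ7 had a mean of 32.7% ± 0.758 and the line one of 61.7% ± 0.118 (SD, n = 3 each). Over the hypo-DMRs these means were 59.2% ± 1.78 and 31.7% ± 0.828 (SD, n = 3 each). The hyper mean was 61.5%, 61.7% and 61.8% in the 3 libraries of the line, so none of them stood apart. The groups did not overlap in 222 regions, 75.3% against 74.7% of the whole list, and each library of the line was 20 points or more away from the mean of WYJ7 in 148 regions, 50.2% against 47.6%.

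The regions of this line were mostly low or intermediate in WYJ7. Of its 295 regions, 64 were low in WYJ7 and intermediate in the line and 62 intermediate in WYJ7 and high in the line, against 45 and 22 of the 428 CK regions. The 99 that were intermediate in both were the largest class, and 12 went from high to intermediate. All 3 libraries of the line were above 90% in 22 regions, and all 3 WYJ7 libraries were in 2. WYJ7 was listed at 0 throughout in 42 regions, and in 10 of these all 3 libraries of the line were above 20%. Its level was low in 31.2% and high in 6.78% of the intron regions, against 34.6% and 8.14% of the whole list of this line. The courses were not counted for that list.

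OS11G0425300 (chromosome 11, 13466044 to 13466085, 8 CpGs) lay furthest above WYJ7 under the same rule, at 7.52%, 9.96% and 11.6% in WYJ7 and at 55.0%, 75.6% and 56.2% in the line. OS11G0250400 (chromosome 11, 8135201 to 8135274, 6 CpGs) was at 35.9%, 50.4% and 52.0% in WYJ7 and at 94.6%, 95.2% and 92.2% in the line. OS03G0806300 (chromosome 3, 33684357 to 33684387, 7 CpGs) was at 44.2%, 49.3% and 60.3% in WYJ7 and at 94.0%, 93.7% and 93.9% in the line. The libraries of the line were nearly identical in the last of these, and in all 3 regions they were well above the WYJ7 libraries. The most CpG-rich hyper-DMR, 16 CpGs in 158 bp of OS01G0717400 (chromosome 1, 29875465 to 29875622), had a smaller difference of 18.6 points, with WYJ7 at 18.1%, 5.57% and 13.7% and the line at 40.4%, 24% and 28.7%.

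Of the hypo-DMRs of this line, OS06G0717400 (chromosome 6, 30484608 to 30484657, 5 CpGs) was at 33.5%, 19.3% and 53.9% in WYJ7 and was listed at 0 in all 3 libraries of the line. OS03G0448700 (chromosome 3, 19203318 to 19203387, 5 CpGs) was at 78.4%, 68.8% and 74.9% in WYJ7 and at 50%, 42.9% and 35.0% in the line. The intron of OS02G0219900 on chromosome 2, of 1192 bp, held a hypo-DMR and a hyper-DMR. Its region from 6681295 to 6681453, with 15 CpGs, was at 44.9%, 53.3% and 52.7% in WYJ7 and at 21.5%, 29.6% and 14.6% in the line. The hyper-DMR lay from 6681088 to 6681097 (4 CpGs), where WYJ7 was listed at 0 throughout and the line was at 60.5%, 70.5% and 45.8%. The groups did not overlap in either region.

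**Figure D2:**
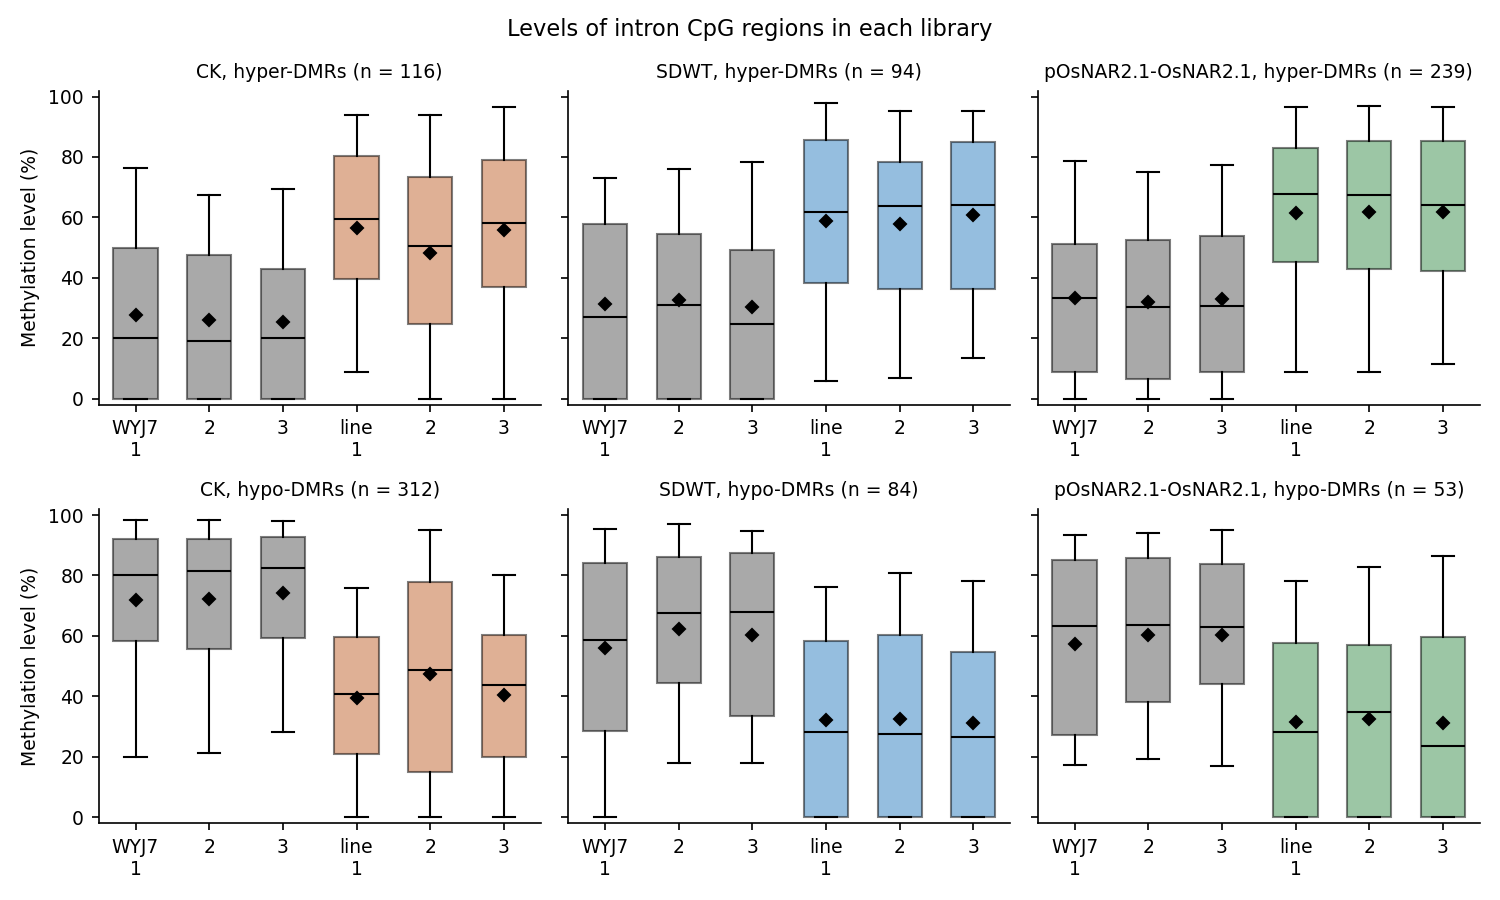
Methylation level (%, y axis) of the intron CpG regions in each of the 3 WYJ7 libraries (grey) and the 3 libraries of the line (colour), for hyper-DMRs (top) and hypo-DMRs (bottom) of each list. Boxes span the quartiles with the median as a line, whiskers the 5th to 95th percentile, and diamonds are means; the CK mean of replicate 2 (48.1% and 47.3%) lay closer to WYJ7 than those of replicates 1 and 3.

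The direction of the intron regions followed that of the rest of each list. In CK the share of hyper-DMRs was 24.3% in 251 exon CpG regions and 31.4% in 2094 upstream CpG regions. In SDWT it was 54.9% in 133 exon regions and 52.7% in 1235 upstream regions. In pOsNAR2.1-OsNAR2.1 it was 75.4% in 183 exon regions and 79.5% in 1563 upstream regions. The size of the differences was also much the same, with a median absolute difference of 29.0 points in the intron regions of CK, 27.4 points in SDWT and 27.3 points in pOsNAR2.1-OsNAR2.1, against 27.9, 27.7 and 27.2 points in the whole lists. The starting level differed between the lists, with a median WYJ7 level of 69.5% in the intron regions of CK, 44.0% in those of SDWT and 35.9% in those of pOsNAR2.1-OsNAR2.1 (68.7%, 40.7% and 35.2% in the whole lists).

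Some listed regions differed little in their deposited levels. The 2 means were less than 10 points apart in 16 CK, 9 SDWT and 26 pOsNAR2.1-OsNAR2.1 regions, and at least 40 points apart in 79, 22 and 53. In CK these counts were 28 and 126 without replicate 2. Over the whole lists, the means were less than 10 points apart in 222 of 5122 CK, 144 of 2731 SDWT and 235 of 3539 pOsNAR2.1-OsNAR2.1 regions. They were at least 40 points apart in 950, 500 and 665 of these. The 2 means of an intron region were less than 20 points apart in 84 CK, 48 SDWT and 83 pOsNAR2.1-OsNAR2.1 regions. A group was listed at 0 in all 3 libraries in 21, 16 and 24 of them. Leaving out every region with a level listed at 0 gave 23.99% hyper-DMRs in the 296 remaining CK regions, 54.5% in 110 SDWT regions and 84.7% in 203 pOsNAR2.1-OsNAR2.1 regions.

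**Figure D3:**
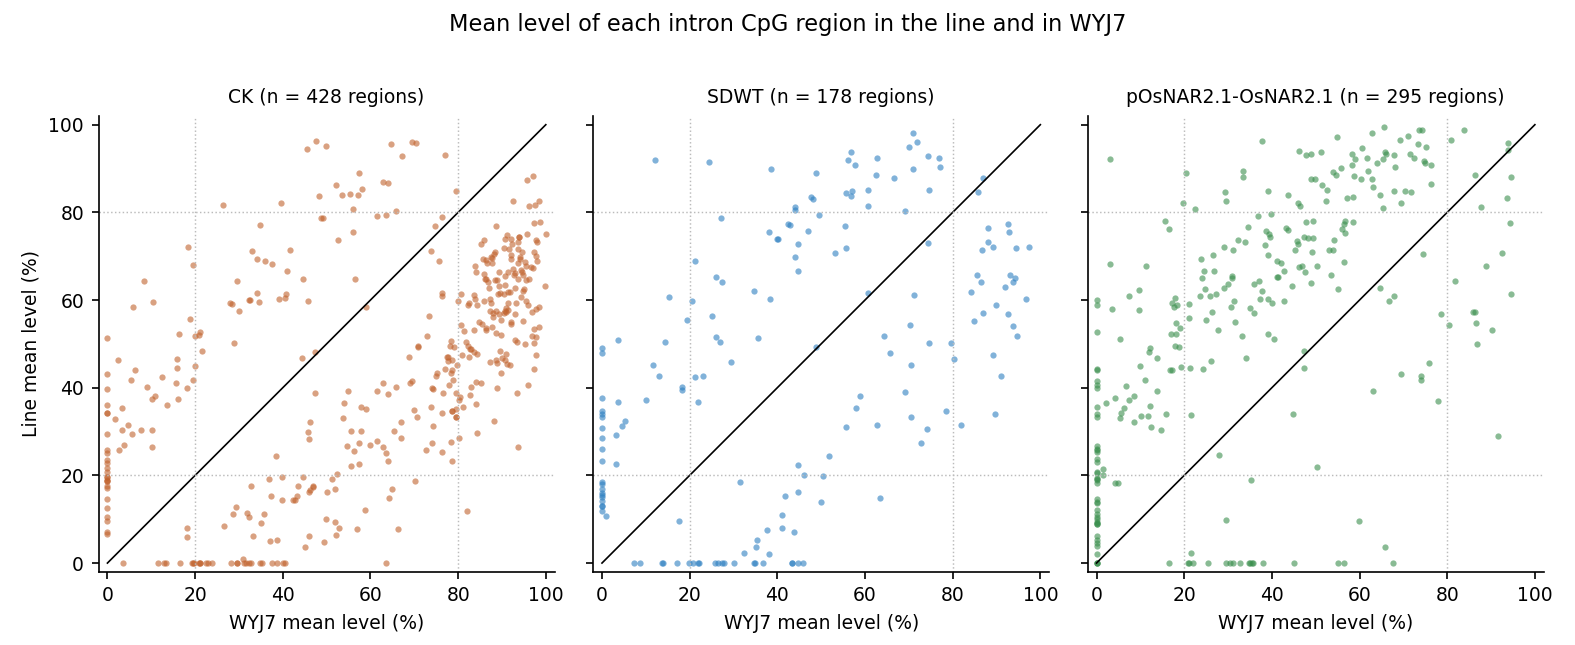
Mean methylation level of each intron CpG region in the line (%, y axis) against its mean in WYJ7 (%, x axis), 3 libraries each; the solid line marks equal levels and dotted lines 20% and 80%. The CK points gather below the line at high WYJ7 levels, where 157 regions were high in WYJ7 and intermediate in CK, and the pOsNAR2.1-OsNAR2.1 points gather above it (239 of 295); the points along the axes are regions with a group listed at 0.

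The regions were short. Their median width was 29 bp for CK, 20.5 bp for SDWT and 27 bp for pOsNAR2.1-OsNAR2.1. The widest had 226, 91 and 159 bp. Regions held a median of 4 CpGs in all 3 lists, 3 being the fewest listed. Exactly 3 CpGs were in 208 CK, 73 SDWT and 131 pOsNAR2.1-OsNAR2.1 regions, and at least 10 in 8, 6 and 7. The CpGs were closer together in SDWT, with a median of 18.2 per 100 bp of region, against 12.5 for CK and 14.3 for pOsNAR2.1-OsNAR2.1. Among regions of at least 5 CpGs the hyper share was 36.5% in 74 CK regions, 65.8% in 38 SDWT regions and 90% in 70 pOsNAR2.1-OsNAR2.1 regions. In each case this was above the share over all intron regions of that line. The share at this minimum was not computed for the whole lists, so it cannot be called particular to introns.

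The introns that held them were of all lengths. The median length was 1356 bp in CK (74 to 57026 bp), 1802 bp in SDWT (127 to 27067 bp) and 1217 bp in pOsNAR2.1-OsNAR2.1 (127 to 17565 bp). A region lay at a median distance of 286.5 bp from the nearest end of its intron in CK, 389 bp in SDWT and 233 bp in pOsNAR2.1-OsNAR2.1. An end was crossed by 11, 2 and 4 regions. Introns of other genes were not analysed here, so no lengths can be set beside these. By direction, the central one of 3 equal parts of the intron held 37.5% of the CK hypo-DMRs and 23.3% of the CK hyper-DMRs (37.1% and 25% without replicate 2). The same shares were 45.2% and 31.9% in SDWT and 39.6% and 29.3% in pOsNAR2.1-OsNAR2.1.

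The share of hyper-DMRs in CK was higher in long introns. Of the 56 CK regions in introns over 5000 bp, 23 were hyper (41.1%), against 27.6% of 192 in introns of 1000 to 5000 bp and 22.2% of 180 in shorter ones. From replicates 1 and 3 alone these shares were 41.1%, 26.6% and 23.3%. The long introns also had a lower median WYJ7 level, at 45.9% against 73.9% and 69.8%. No such order was seen in SDWT, with 51.9% of 27, 48.5% of 97 and 61.1% of 54, or in pOsNAR2.1-OsNAR2.1, with 87.2% of 39, 76.2% of 126 and 83.8% of 130. These differences were not tested.

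**Figure D4:**
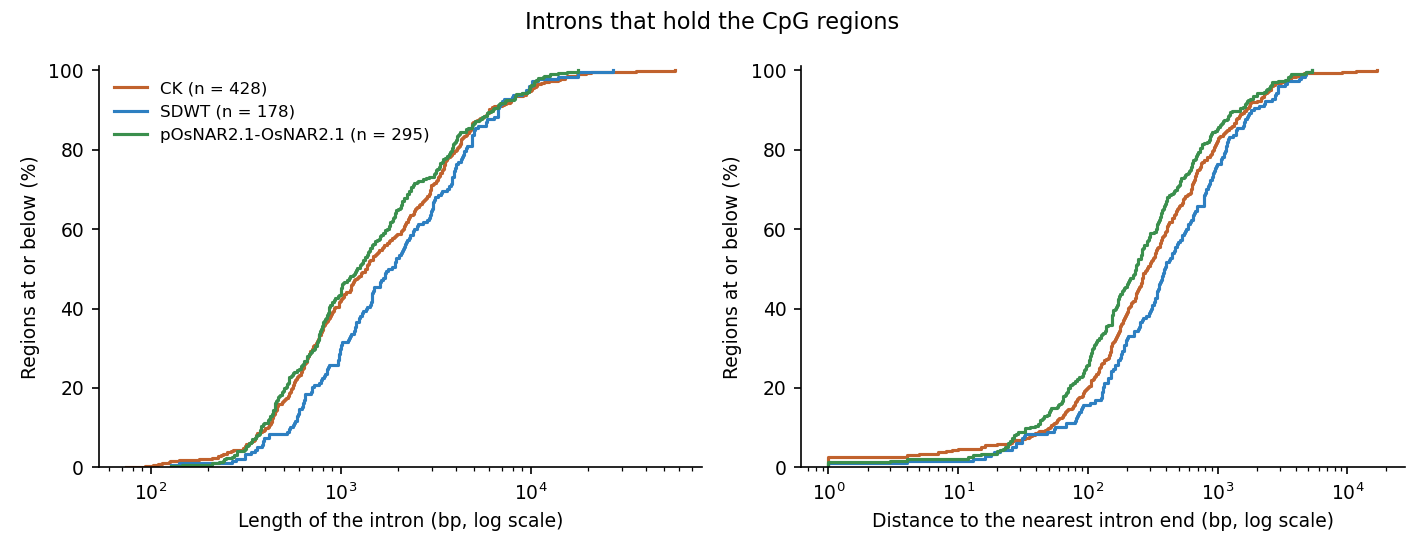
Cumulative share of the intron CpG regions (%, y axis) by the length of the intron that holds them (left) and by their distance to its nearest end (right), both in bp on a log scale, with distances of 0 drawn at 1; 1 line per list. The SDWT line lies to the right of the others, with medians of 1802 bp for length and 389 bp for distance.

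All 12 chromosomes held intron CpG regions in each list. Chromosome 3 held 61 of the 428 CK regions, 14.3% against 9.96% of the whole CK list, and 8 of these 61 were hyper (13.1%). In pOsNAR2.1-OsNAR2.1, chromosome 1 held the most, 46 regions (15.6% against 12.5% of the list). The hyper share of that line was lowest on chromosome 6, with 18 of 30, and highest on chromosome 7, with 26 of 27, and chromosome 11, with 20 of 21. In SDWT, chromosome 1 held 30 of 178 regions (16.9% against 12.1%). These shares rest on few regions each, name the extremes among 12 chromosomes and were not tested. Hyper shares by chromosome were not computed for the whole lists, so they cannot be called particular to introns.

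Most genes had 1 intron region in a list. In CK, 19 of 408 genes had several, and in 15 of them all regions had 1 direction. In SDWT this was 5 of 173 genes, of which 1 had a single direction, and in pOsNAR2.1-OsNAR2.1 12 of 283 genes, of which 8 did. The regions stood in the same intron in 16, 4 and 10 of these genes. OS11G0607900, with 3 regions in CK, had the most. Its region from 23463553 to 23463565 on chromosome 11 was at 63.3%, 58.9% and 54.7% in WYJ7 and at 57.1%, 0 and 48.3% in CK. In another intron, of 9362 bp, the region from 23466516 to 23466523 was at 84.4%, 100.0% and 88.8% in WYJ7 and at 17.5%, 82.5% and 36.4% in CK. Further along that intron, from 23472810 to 23472823, WYJ7 was at 77.4%, 94.8% and 89.4% and CK at 56.6%, 41.6% and 39.5%. CK replicate 2 was thus the lowest CK library in the first, the highest in the second and neither in the third, although the mean was lower than in WYJ7 in all 3.

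Of the 741 genes, 118 had an intron CpG region in more than 1 list. CK and pOsNAR2.1-OsNAR2.1 shared 55 of these without SDWT, CK and SDWT 34, SDWT and pOsNAR2.1-OsNAR2.1 24, and 5 were in all 3 lists. Counting only regions with a difference of at least 30 points, 27 genes were left in more than 1 list, and 28 without CK replicate 2. Regions overlapping by at least 1 bp were 43 between CK and pOsNAR2.1-OsNAR2.1 (10.0% of the first and 14.6% of the second), 18 between CK and SDWT (4.21% and 10.1%) and 18 between SDWT and pOsNAR2.1-OsNAR2.1 (10.1% and 6.10%). The lists share the WYJ7 libraries, so their differences are not independent, and the levels are set side by side here without a test. The WYJ7 levels agreed within 0.01 points between lists at all 51 positions listed identically in at least 2 of them.

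A single position was listed in all 3 lines. In the region of OS09G0279400 (chromosome 9, 5869358 to 5869365, 4 CpGs), 4 bp from the end of an intron of 418 bp, WYJ7 was at 0, 41.5% and 18.0%. CK and SDWT were listed at 0 in all 3 libraries each, and pOsNAR2.1-OsNAR2.1 was at 84.1%, 80.9% and 81.5%. Only the transgenic line was outside the WYJ7 range, and its libraries agreed within 3.22 points.

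In the other 4 genes in all 3 lists, no position was listed for all 3 lines. In OS01G0249200, 1 intron of 2099 bp on chromosome 1 held all of them. The region from 8204747 to 8204773 (3 CpGs) was listed at 0 in WYJ7 and pOsNAR2.1-OsNAR2.1 throughout and was at 19.3%, 48.7% and 20% in CK. The region from 8205017 to 8205047 (4 CpGs) was at 71.7%, 60.4% and 55.8% in WYJ7 and at 20.3%, 36.3% and 37.6% in SDWT. In the third, from 8205268 to 8205330 (4 CpGs), WYJ7 was at 4.91%, 16.0% and 26.5% and pOsNAR2.1-OsNAR2.1 at 35.2%, 34.1% and 32.8%. CK and pOsNAR2.1-OsNAR2.1 were thus above WYJ7 and SDWT below it, at different CpGs of the intron.

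In OS01G0327100 the same 4 CpGs (chromosome 1, 12565414 to 12565435) were at 74.6%, 59.4% and 63.8% in WYJ7, at 61.3%, 82.7% and 97.1% in CK and at 97.5%, 93.9% and 88.6% in pOsNAR2.1-OsNAR2.1. CK overlapped WYJ7 there and pOsNAR2.1-OsNAR2.1 did not. Its SDWT region, from 12566641 to 12566662 in the same intron, was at 59.2%, 30.7% and 30.6% in WYJ7 and at 67.7%, 76.2% and 77.6% in SDWT.

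In OS03G0604432 the regions lay in an intron of 13831 bp on chromosome 3. From 22651629, SDWT was at 52.8%, 69.1% and 77.9% against 33.9%, 43.9% and 56.0% in WYJ7 over 5 CpGs that end at 22651657. Over 6 CpGs from the same start to 22651696, pOsNAR2.1-OsNAR2.1 was at 87.5%, 83.2% and 94.6% against 51.3%, 50.5% and 62.4% in WYJ7. The CK region, from 22654598 to 22654646, was at 33.2%, 63.5% and 64.8% in WYJ7 and at 38.2%, 38.0% and 22.9% in CK, where the groups overlapped. OS02G0511400 had its regions in 2 introns of chromosome 2, and in all of its 3 regions the groups overlapped. CK differed from WYJ7 by -33.6 points from 18299279 to 18299348, SDWT by 33.4 points from 18301826 to 18301831 and pOsNAR2.1-OsNAR2.1 by 19.1 points from 18307358 to 18307405.

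Regions listed at the same position in a pair of lines could have large differences of 1 direction. In OS07G0645000 (chromosome 7, 26883016 to 26883067, 4 CpGs) WYJ7 was at 19.7%, 33.0% and 26.7%, CK at 73.0%, 81.0% and 90.8% and pOsNAR2.1-OsNAR2.1 at 60.6%, 47.6% and 63.5%. In OS05G0152600 (chromosome 5, 3037452 to 3037484, 3 CpGs) WYJ7 was at 28.0%, 8.39% and 19.0%, CK at 88.9%, 50% and 77.4% and pOsNAR2.1-OsNAR2.1 at 58.7%, 58.8% and 59.2%. In OS07G0212200 (chromosome 7, 6135849 to 6135875, 3 CpGs) WYJ7 was at 32.7%, 28.8% and 0, SDWT at 65.9%, 62.8% and 50.6% and pOsNAR2.1-OsNAR2.1 at 100.0%, 85.0% and 81.9%. In each of these both lines lay above every WYJ7 library.

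A lower level in both lines was seen in OS03G0650000 (chromosome 3, 25203827 to 25203839, 3 CpGs), at 72.7%, 85.7% and 32.2% in WYJ7, listed at 0 throughout in CK and at 21.5%, 22.9% and 0 in SDWT. In OS06G0572300 (chromosome 6, 22192765 to 22192781, 3 CpGs) WYJ7 was at 65.4%, 63.7% and 68.4%, CK at 82.2%, 0 and 38.5% and pOsNAR2.1-OsNAR2.1 at 0, 0 and 10.9%. The CK libraries lay on both sides of WYJ7 there, while pOsNAR2.1-OsNAR2.1 was below it in all 3.

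At 15 of the 51 positions the lines lay on opposite sides of the WYJ7 mean with all their libraries. Of these, 7 were shared by CK and pOsNAR2.1-OsNAR2.1, 5 by CK and SDWT, 2 by SDWT and pOsNAR2.1-OsNAR2.1 and 1 by all 3 lines. CK was among the lines at 13 of the 15 positions, and at 14 without its replicate 2. Only OS01G0361500, OS05G0189900, OS06G0624950 and OS11G0591200 among the 15 had no library listed at 0. At the others a side may rest on a listed 0. The richest in CpGs of the 15, with 10, was OS01G0361500 (chromosome 1, 14736973 to 14737020), in an intron of 750 bp. It was at 56.3%, 55.8% and 76.3% in WYJ7, at 40.9%, 40.9% and 41.5% in CK and at 87.2%, 89.97% and 85.7% in pOsNAR2.1-OsNAR2.1, so the 3 groups did not overlap and no library was listed at 0. In OS06G0624950 (chromosome 6, 25161924 to 25161941, 4 CpGs), WYJ7 was at 63.3%, 73.2% and 34.2%, CK at 7.50%, 8.97% and 6.92% and SDWT at 80.7%, 78.2% and 92.2%. The 3 groups did not overlap there either, and WYJ7 had the widest spread. The differences between lines at these positions were not tested.

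**Figure D5:**
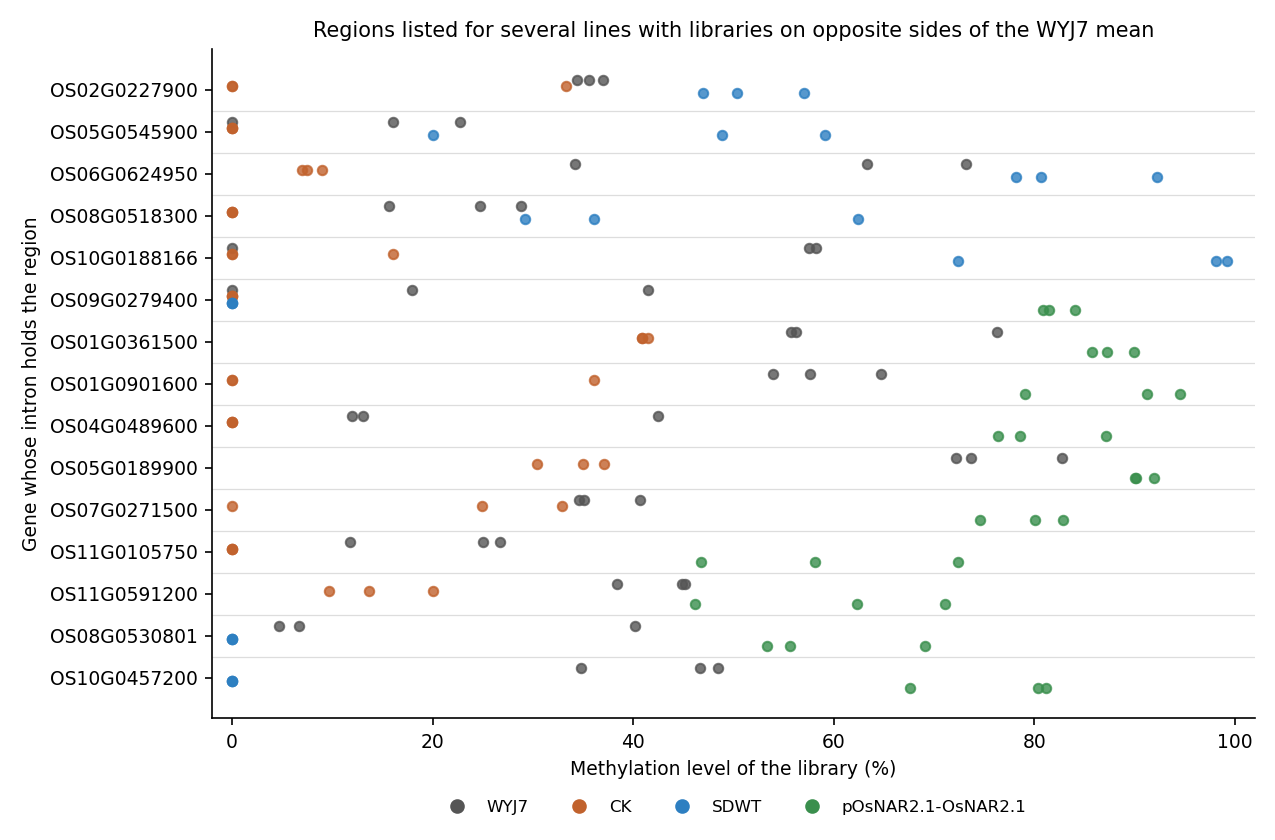
Methylation level (%, x axis) of each library in the 15 intron CpG regions that were listed at the same position for at least 2 lines and had all libraries of the lines on opposite sides of the WYJ7 mean; each row is a region, named by its gene, and each point a library, 3 per group. In OS01G0361500 the CK libraries sit at 40.9% to 41.5%, below WYJ7, and the pOsNAR2.1-OsNAR2.1 libraries at 85.7% to 89.97%, above it; several CK and SDWT points are stacked at a listed 0.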

How the data were processed

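The authors mapped the WGBS reads to IRGSP-1.0 with Bismark 0.9.0. Cytosines of low read depth were dropped, and methylKit and eDMR were used by the authors to find the DMRs of a line relative to WYJ7, so the lists hold called regions only. The deposited levels are in percent of methylation per region and library, without normalization between libraries. The deposited number of CpGs, width and intron coordinates were used as given. Columns with the authors' difference, its direction, p-value and q-value were not used.

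For each region the mean and SD over 3 libraries, the line minus WYJ7 difference and the overlap of the 2 groups were computed in Python 3.11.15 (pandas 2.3.3, numpy 2.4.6), intervals with scipy 1.17.1 and plots with matplotlib 3.10.9, and the functions were tested on simulated data. Intron length is the end minus the start in the file. No test was run, because the regions had been chosen for a difference in these libraries. Members and gene lists were chosen with earlier results of these data known. Named regions were, per line and direction, the 3 largest differences among those with at least 5 CpGs and no overlap and the region with the most CpGs; the gene with the most regions; genes in all 3 lists; and up to 6 positions shared between lists by summed difference. Outside these rules, OS08G0299400, OS01G0361500, OS06G0624950 and the hyper-DMR of OS02G0219900 were also described. Positions with lines on opposite sides of the WYJ7 mean were flagged as a set. Planned lists of methylation, small RNA and nitrate genes could not be matched to the IDs. Regions of 1 gene or intron are not independent, and whether the replicates of WYJ7 and of both T4 groups came from separate plants is not given in the sources used here, so their spread may be technical. The 3 MeDIP-seq samples and sequences of the regions were not used here.

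Alternatives were a minimum of 5 CpGs, a difference of at least 30 points, 1 region per gene, the CpG-weighted mean, the median, intermediate levels only and each replicate left out. Leaving out regions with a level listed at 0, and regions under 20 points, and counting CK regions from replicates 1 and 3 alone, was chosen after seeing the data. Shifts were read against the Wilson 95% interval of a share, the SD over libraries of a mean, or the SD over left-out replicates of a spread. The Wilson interval counts regions as if they were independent. It served only as a limit for naming a shift and does not measure the spread between plants or libraries.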

Additional observations from a re-analysis of the deposited data

Results flagged for a closer look

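At 15 of the 51 positions listed identically for at least 2 lines, all libraries of 1 line lay above the WYJ7 mean and all libraries of another below it. Most of the 51 did not show this, and the difference between the lines was not tested. The lines share the WYJ7 libraries, so the 2 differences at a position are not independent. CK was below WYJ7 and pOsNAR2.1-OsNAR2.1 above it at 7 of them. OS01G0361500 had differences of -21.7 points in CK and 24.9 points in pOsNAR2.1-OsNAR2.1. OS01G0901600 had -46.7 points in CK and 29.5 points in pOsNAR2.1-OsNAR2.1, and OS04G0489600 had -22.5 and 58.3 points. For OS05G0189900 the differences were -42.0 and 14.5 points in the same order, for OS07G0271500 -17.5 and 42.4 points, for OS11G0105750 -21.1 and 38.0 points, and for OS11G0591200 -28.4 and 17.1 points. All 3 CK libraries were listed at 0 in OS04G0489600 and OS11G0105750, and some of them in OS01G0901600 and OS07G0271500.

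CK was below and SDWT above WYJ7 at 5 positions. The differences were -24.6 points in CK and 15.8 points in SDWT for OS02G0227900, -12.9 and 29.8 points for OS05G0545900, and -49.1 and 26.8 points for OS06G0624950. For OS08G0518300 they were -23.0 and 19.5 points and for OS10G0188166 -33.3 and 51.3 points. All 3 CK libraries were listed at 0 in OS05G0545900 and OS08G0518300, and some of them in OS02G0227900 and OS10G0188166. SDWT was below and pOsNAR2.1-OsNAR2.1 above WYJ7 in OS08G0530801, by -17.2 and 42.2 points, and in OS10G0457200, by -43.3 and 33.1 points. SDWT was listed at 0 in all libraries of both. In OS09G0279400 CK and SDWT each differed by -19.8 points and pOsNAR2.1-OsNAR2.1 by 62.3 points, with all CK and SDWT libraries listed at 0.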

How the results depend on the processing

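The hyper shares of CK and pOsNAR2.1-OsNAR2.1 stayed on the same side of 50% under every alternative run. Mean differences were taken within regions already split by direction, so the sign they kept was largely set in advance. With a replicate left out, hyper shares were taken over regions still at least 20 points apart. The SDWT share was 51.5% under that limit with all replicates, and 49.2% without SDWT replicate 2. A minimum of 5 CpGs moved the hyper share of CK to 36.5%, that of SDWT to 65.8% and that of pOsNAR2.1-OsNAR2.1 to 90%, and the share of regions without overlap to 81.1%, 89.5% and 88.6%. These shares were not computed for the whole lists. A minimum difference of 30 points moved the CK hyper share to 21.8% and the number of genes in several lists to 27. The median over hyper-DMRs of pOsNAR2.1-OsNAR2.1 was 27.3 points, and its hypo-DMRs without a listed 0 had a mean difference of -23.0 points. With each replicate left out, the share without overlap was 65.7% to 86.9% (without CK replicate 2) for CK, 75.3% to 80.3% for SDWT and 77.6% to 81.7% for pOsNAR2.1-OsNAR2.1. This share can only rise when a library is left out. Leaving out a replicate sets the SD of 2 libraries beside that of 3, and a median SD of 2 tends to be smaller. The sign of such a value can therefore not be read as a difference in spread. With each replicate left out, the median SD of the line minus that of WYJ7 was -0.70 to 10.7 points for CK, -1.91 to 4.19 points for SDWT and -1.87 to 2.47 points for pOsNAR2.1-OsNAR2.1. It turned negative in CK without CK replicate 2 only (9.52 and 9.58 points without replicate 1 or 3), and in both T4 groups without any 1 of their own replicates. It was also negative with at least 5 CpGs in SDWT (-0.89 points) and in pOsNAR2.1-OsNAR2.1 with at least 5 CpGs (-0.35 points), at intermediate levels (-0.27 points) and without a listed 0 (-1.54 points). The cause was not tested. A further 111 recomputed values stayed within the limits set for naming a shift, among them mean differences within 1 direction. For shares these limits come from the number of regions, so staying within them does not show stability over replicates. The intron rule gave identical regions when only introns were allowed, since each region names 1 feature. A stricter q-value was not run, as the authors' q-values were not used. No paired analysis was possible because no result comes from a test to which a block could be added, and the mean of same-numbered differences equals the difference of the means. The unknown depth per region and the selection of called regions limit all values.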
